A study of Mus musculus with 18 samples.

Results

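The immunoproteasome genes *Psmb8*, *Psmb9* and *Psmb10* and the genes of the PA28 activator, *Psme1* and *Psme2*, were followed in newly transcribed RNA of NIH-3T3 cells, an established line of mouse embryonic fibroblasts, after treatment with IFNα or IFNγ in presence and absence of the translation inhibitor cycloheximide (CHX). The members were chosen by name: every probe set whose annotation gives only 1 of these 5 symbols. This gave 5 of the 45037 probe sets that are not array controls, and they cover 4 of the 5 genes. *Psme2* has no probe set of its own, because the only one that lists it also lists *Psme2b*, and its values are given below only as those of a shared probe set.

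The 18 arrays form 6 groups of 3 biological replicates: mock, IFNα, IFNγ, CHX, IFNα+CHX and IFNγ+CHX. Cells of the groups without CHX were pretreated with the solvent DMSO and the others with CHX, in both cases for 15 min. IFNα or IFNγ followed at 100 U/ml for 1 h, or no IFN in the mock and CHX groups. Cells of all 6 groups, controls included, were given 500 µM 4-thiouridine for the last 30 min, and the RNA that had taken it up was purified and hybridized to Affymetrix arrays. The values therefore describe RNA made in that window and not the amount of mature transcript. All 8 fibroblast markers examined were present, with median intensities between 1094 and 18106 over the 18 arrays. Of the 5 leukocyte markers with a probe set, *Ptprc*, *Cd3e*, *Itgam* and *Adgre1* stayed at 6.0 or less on every array, whereas *Cd68* lay between 53.5 and 284. In bulk RNA a smaller number of transcribing cells and less RNA per cell cannot be told apart.

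The proteasome degrades proteins in a barrel-shaped core, the 20S particle, whose 3 catalytic subunits are encoded by *Psmb5*, *Psmb6* and *Psmb7*. In cells exposed to IFN these subunits can be replaced during assembly by LMP7 (*Psmb8*), LMP2 (*Psmb9*) and MECL1 (*Psmb10*), which gives the immunoproteasome. Its peptide products fit MHC class I molecules well and are carried into the endoplasmic reticulum by the transporter TAP, made from *Tap1* and *Tap2*. PA28α (*Psme1*) and PA28β (*Psme2*) form a ring that caps the core and opens it for peptides. Fibroblasts ordinarily contain mostly the constitutive form.

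The start regions of 4 genes are printed here because the responses below separate *Psmb9* from *Psmb10* and *Psme1*, and because the transcription factors that carry IFN signals bind DNA in promoters. The sequences are RefSeq promoters on GRCm38.p6, from 250 bases before to 50 bases after the annotated start, 5′ to 3′ on the strand of the gene. Capitals mark the letters that matched a motif.
Psmb8 (chr17:34197945-34198244, plus strand): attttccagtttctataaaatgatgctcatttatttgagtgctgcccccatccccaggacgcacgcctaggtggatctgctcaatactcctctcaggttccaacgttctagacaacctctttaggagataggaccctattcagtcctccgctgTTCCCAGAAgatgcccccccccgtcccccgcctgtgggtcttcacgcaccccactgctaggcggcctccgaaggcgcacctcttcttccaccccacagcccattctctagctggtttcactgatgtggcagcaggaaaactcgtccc
Psmb9 (chr17:34187281-34187580, minus strand): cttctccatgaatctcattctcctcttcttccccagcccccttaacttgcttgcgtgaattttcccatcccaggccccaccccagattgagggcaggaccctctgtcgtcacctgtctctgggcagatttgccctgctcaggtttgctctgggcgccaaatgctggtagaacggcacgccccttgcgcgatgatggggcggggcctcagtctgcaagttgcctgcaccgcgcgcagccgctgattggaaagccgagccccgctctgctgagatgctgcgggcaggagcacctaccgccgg
Psmb10 (chr8:105938343-105938642, minus strand): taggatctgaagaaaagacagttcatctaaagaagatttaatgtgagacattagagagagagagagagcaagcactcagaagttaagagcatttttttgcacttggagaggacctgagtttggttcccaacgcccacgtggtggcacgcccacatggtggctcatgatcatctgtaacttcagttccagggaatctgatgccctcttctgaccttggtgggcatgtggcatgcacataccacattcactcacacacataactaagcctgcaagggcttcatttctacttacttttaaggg
Psme1 (chr14:55578244-55578543, plus strand): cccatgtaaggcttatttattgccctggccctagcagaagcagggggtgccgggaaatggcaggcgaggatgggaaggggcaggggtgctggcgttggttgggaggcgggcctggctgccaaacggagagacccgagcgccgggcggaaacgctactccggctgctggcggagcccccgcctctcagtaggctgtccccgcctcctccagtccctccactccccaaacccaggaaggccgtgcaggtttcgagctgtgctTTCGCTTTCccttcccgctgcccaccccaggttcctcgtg

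Both strands were searched for 4 motifs, as plain letters with no overlap between motifs at any of the matches found in these genes. The core of the IFN-stimulated response element (ISRE), GAAANNGAA, occurred in 8.56% of 32851 promoters of the same length. The shares were 8.3% for the IFNγ-activated site (GAS), TTCNNNGAA, 20.7% for the NF-κB core, GGGANNNNCC, and 12.4% for the core of the antioxidant response element, TGACNNNGC. *Psmb8* held 1 match, a GAS at positions -97 to -89 from the start. *Psme1* held 1 ISRE core, on the opposite strand at positions 11 to 19. *Psmb9*, *Psmb10* and *Psme2* held none of the 4 motifs in this window, which says only that these letters are not there. The GAS core given in the paper also allows other spacings between TTC and GAA, and these were not searched. Among the constitutive subunit genes, *Psmb5* and *Psmb6* each held 1 antioxidant response element core, and *Psmb7* is named only.

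*Psmb9*, *Tap1*, *Psmb8* and *Tap2* lie side by side on chromosome 17 in the MHC region. *Psmb9* and *Tap1* are transcribed away from each other, with 225 bases between the genes, so that 275 bases of their start regions are the same DNA read on opposite strands. *Tap1* and *Psmb8* are 969 bases apart, and *Psmb8* and *Tap2* 3024. *Psme1* and *Psme2* both lie on chromosome 14, with 5912 bases between them, and *Psmb10* lies on chromosome 8.

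IFNγ raised 3 of the 4 measured genes in absence of CHX, where 1.71% of all probe sets tested were called higher and 0.41% lower. *Psmb9* rose 11.3-fold, *Psme1* 2.97-fold and *Psmb10* 1.80-fold. In presence of CHX *Psmb9* rose 17.2-fold with IFNγ and 6.59-fold with IFNα, while *Psmb10* and *Psme1* stood at 0.945 and 0.821 times their level with CHX alone after IFNγ. A change was called in limma at a Benjamini-Hochberg adjusted p under 0.01 over the 27773 probe sets that reached an intensity of 8.5 or more on at least 1 array. All 5 member probe sets were among these. On the arrays without IFN *Psmb9* was little above the array medians of 9.6 to 10.8, so its folds depend on the floor of the arrays. The probe set that stands for *Psmb8* had intensities of 10.0 to 14.2, near these medians, and says little of that gene. Levels below are log2 intensities, and levels of different probe sets cannot be set against each other.

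**Figure D1:**
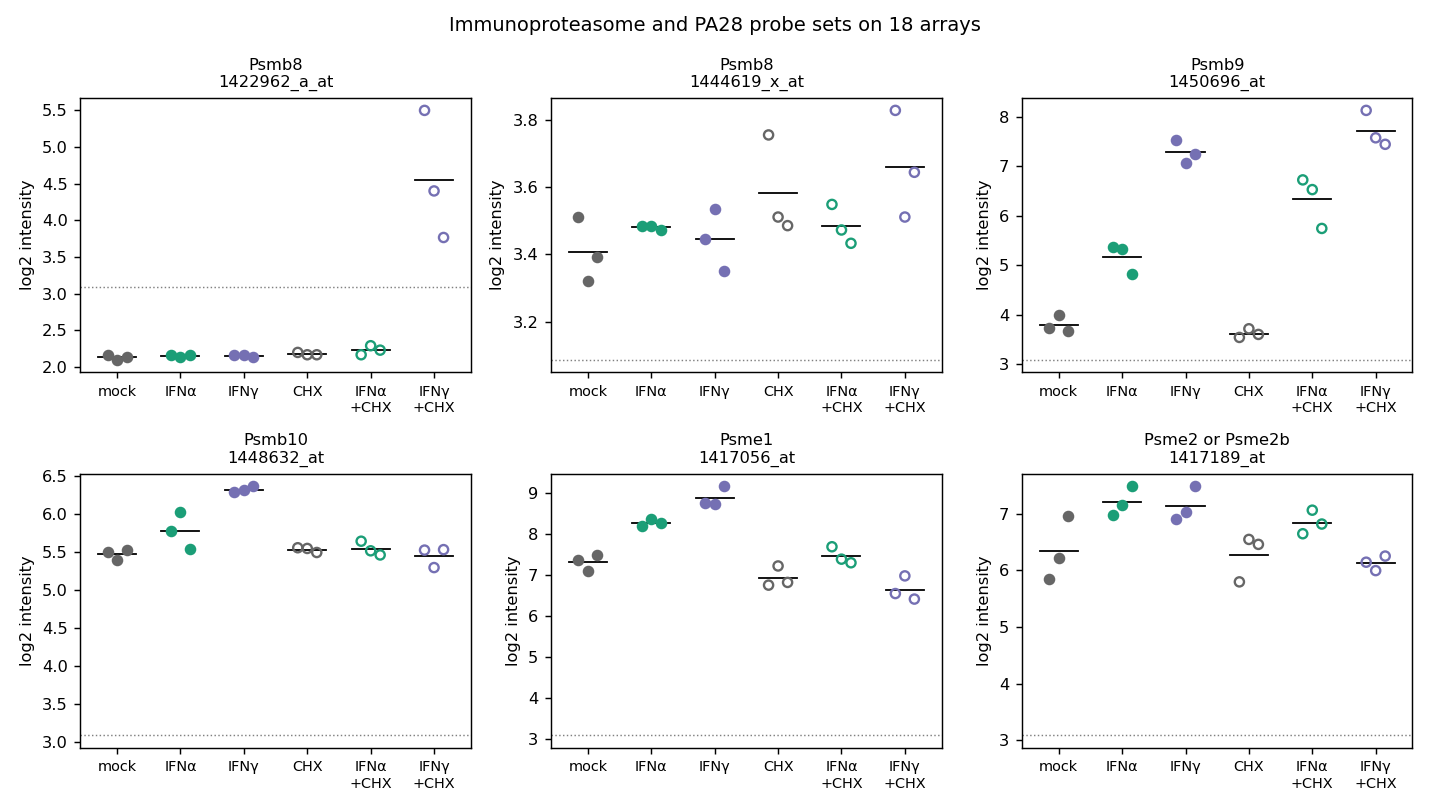
Log2 intensity of the 6 probe sets (y axis, a separate range in each panel that does not start at 0) on the 18 arrays, by treatment (x axis). Points are arrays, filled without and open with CHX, black bars are means of 3 arrays, and the dotted line is the intensity of 8.5 used as the filter. *Psmb9* was higher on all 12 arrays with IFN than on any of the 6 without, whereas *Psmb10* and *Psme1* were highest on the 3 arrays with IFNγ alone.

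*Psmb9* encodes the subunit that takes the place of the *Psmb6* product. Its log2 intensities were 3.73, 3.99 and 3.67 on the mock arrays, 5.37, 5.33 and 4.81 with IFNα, and 7.54, 7.08 and 7.25 with IFNγ. With CHX they were 3.54, 3.71 and 3.60 without IFN, 6.73, 6.53 and 5.74 with IFNα, and 8.14, 7.58 and 7.45 with IFNγ. The order of the group means was CHX (3.61), mock (3.80), IFNα (5.17), IFNα+CHX (6.33), IFNγ (7.29) and IFNγ+CHX (7.72). Neighbours in this order overlapped for CHX and mock and for IFNγ and IFNγ+CHX, and the arrays of the other neighbouring groups did not overlap. The log2 change with IFNγ was 3.49 (SE 0.24, adjusted p = 4.23e-07), the 58th largest rise among the 27773 probe sets. On the mock and CHX arrays the intensity of *Psmb9* was 11.6 to 15.9, little above the array medians of 9.6 to 10.8, so the size of its changes against these groups, and their rank, depends on the floor of the arrays. With IFNα it was 1.37 (SE 0.24, adjusted p = 0.0109, 95% confidence interval 0.85 to 1.90). The IFNα arrays did not overlap the mock arrays, yet this change did not pass the threshold. It passed when IFNα+CHX replicate 1 (adjusted p = 0.00809), IFNα+CHX replicate 3 (0.00186) or IFNγ+CHX replicate 1 (0.00723) was left out.

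*Psmb10* encodes the subunit that takes the place of the *Psmb7* product. Its log2 intensities were 5.50, 5.39 and 5.53 on the mock arrays, 5.78, 6.02 and 5.54 with IFNα, and 6.29, 6.31 and 6.37 with IFNγ. With CHX they were 5.56, 5.55 and 5.50 without IFN, 5.64, 5.52 and 5.46 with IFNα, and 5.53, 5.30 and 5.53 with IFNγ. The 3 IFNγ arrays were above all 15 others, and the 9 arrays with CHX covered a range of 5.30 to 5.64. In the order of the means, IFNγ+CHX (5.45), mock (5.47), CHX (5.53), IFNα+CHX (5.54) and IFNα (5.78), each group overlapped the next. IFNγ raised *Psmb10* by 0.85 on the log2 scale (SE 0.11, adjusted p = 2.43e-04). The change with IFNα was 0.31 (SE 0.11, adjusted p = 0.532).

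*Psme1* encodes the α subunit of the PA28 ring. Its log2 intensities were 7.36, 7.10 and 7.49 on the mock arrays, 8.20, 8.37 and 8.29 with IFNα, and 8.76, 8.73 and 9.18 with IFNγ. With CHX they were 6.76, 7.23 and 6.83 without IFN, 7.70, 7.39 and 7.31 with IFNα, and 6.55, 6.99 and 6.42 with IFNγ. The means ran from IFNγ+CHX (6.65) over CHX (6.94), mock (7.32), IFNα+CHX (7.47) and IFNα (8.29) to IFNγ (8.89). Neighbours among the first 4 overlapped, and the arrays with IFNα or with IFNγ alone overlapped no other group. IFNγ raised *Psme1* by 1.57 on the log2 scale (SE 0.18, adjusted p = 7.04e-05). When the fit held just the mock and IFNγ arrays, the same change had an adjusted p of 0.0112. The change with IFNα was 0.97 (SE 0.18, adjusted p = 0.0162), and of the arrays left out singly only IFNγ+CHX replicate 2 let it pass (adjusted p = 0.00861).

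The probe set shared by *Psme2*, the gene of the β subunit of PA28, and *Psme2b* cannot be assigned to either. Its log2 intensities were 5.85, 6.22 and 6.96 on the mock arrays, 6.98, 7.15 and 7.48 with IFNα, and 6.90, 7.03 and 7.48 with IFNγ. With CHX they were 5.79, 6.54 and 6.46 without IFN, 6.64, 7.06 and 6.82 with IFNα, and 6.14, 5.99 and 6.25 with IFNγ. The mock arrays spread over more than a unit and overlapped those with IFNγ. No change of this probe set passed: it was 0.86 (SE 0.27, adjusted p = 0.319) with IFNα, 0.80 (adjusted p = 0.167) with IFNγ and -0.14 (adjusted p = 0.905) with IFNγ in presence of CHX.

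*Psmb8*, whose product takes the place of the *Psmb5* product, has 2 probe sets, and these disagree. The probe set with the higher mean, which stands for the gene, carries the suffix that Affymetrix gives to sets with probes shared by other transcripts. Its intensity lay between 10.0 and 14.2 on all 18 arrays, and it was called in none of the 9 comparisons. The other had an intensity of 4.3 to 4.9 on 15 arrays, below the filter, and of 45.1, 21.1 and 13.6 on the 3 arrays with IFNγ and CHX. In log2 this is 5.50, 4.40 and 3.77 against a mean of 2.18 with CHX alone. That probe set entered the analysis only through this group. Its values are therefore given as a description, since the other 15 arrays were at the floor. No test or fold change of this probe set is used as a result. The highest and the lowest of the 3 raised arrays were more than a log2 unit apart.

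**Figure D2:**
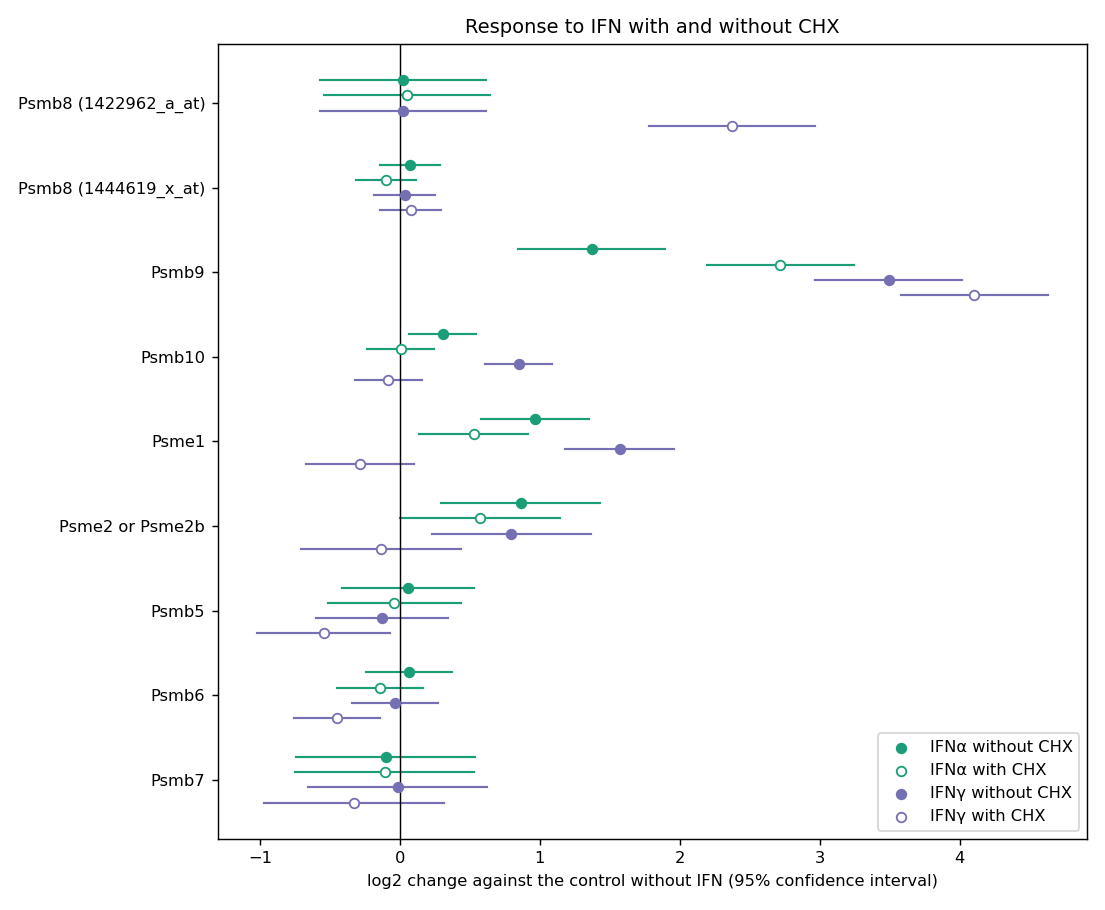
Log2 change with IFNα (green) and IFNγ (purple) against the control without IFN (x axis), without CHX (filled) and with CHX (open), for each probe set and for the constitutive subunit genes *Psmb5*, *Psmb6* and *Psmb7* (y axis). Horizontal lines are 95% confidence intervals of the limma fit on 3 arrays per group. The probe set of the upper *Psmb8* row was at its floor in all groups but IFNγ+CHX. The points and lines of that row are a description only and are not read as a test. The open purple points lie at 4.11 for *Psmb9*, and at -0.08 and -0.29 for *Psmb10* and *Psme1*.

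Without CHX, 3 of the 4 genes were called higher with IFNγ and none lower, where 1.71% of all probe sets tested were called higher and 0.41% lower. Among all rises with IFNγ, *Psme1* had the 285th largest and *Psmb10* the 721st. With IFNα none of the 4 passed in limma, and the background was 0.493% higher and 0.0756% lower. At an unadjusted p under 0.05, 3 of the 4 were higher with IFNα, as were 2.13% of all probe sets, and 3.71% were lower. CHX alone moved none of the 4 past the threshold in limma, where 3.92% of all probe sets rose and 7.02% fell. None of the 4 had an unadjusted p under 0.05 with CHX, beside 12.7% of all probe sets higher and 18.2% lower. The nearest was *Psme1*, with a change of -0.38 (SE 0.18, adjusted p = 0.168).

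In presence of CHX *Psmb9* was the only gene of the 4 that passed, in both IFN comparisons. Its change against CHX was 2.72 with IFNα (SE 0.24, adjusted p = 5.38e-06) and 4.11 with IFNγ (SE 0.24, adjusted p = 3.84e-08). In these comparisons 0.958% of all probe sets rose and 0.0036% fell with IFNα, and 3.22% rose and 1.12% fell with IFNγ. The call for IFNα was lost when only the 6 arrays of CHX and IFNα+CHX were fitted (adjusted p = 0.0154). *Psmb10* changed by 0.01 with IFNα (95% confidence interval -0.23 to 0.25) and by -0.08 with IFNγ (-0.32 to 0.16). *Psme1* changed by 0.53 with IFNα (SE 0.18, adjusted p = 0.532) and by -0.29 with IFNγ (95% confidence interval -0.67 to 0.10).

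For each IFN the response with CHX was compared with that in its absence by a test of their difference. *Psme1* was called lower in this test for IFNγ: the log2 difference was -1.86 (SE 0.26, adjusted p = 0.00305). The call was lost without mock replicate 2 (adjusted p = 0.0128), without CHX replicate 2 (0.0103), and when only the 12 arrays of the 4 groups were fitted (0.0294). The value for *Psmb10* was -0.93 (SE 0.16, adjusted p = 0.0119), which passed when IFNα replicate 2 (0.00687) or IFNα replicate 3 (0.00742) was left out. For *Psmb9* it was 0.61 (SE 0.35, adjusted p = 0.760), with a 95% confidence interval of -0.13 to 1.36. Thus 1 of the 4 genes was called, against a background of 0.202% higher and 0.0396% lower.

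In the same test for IFNα none of the 4 passed in limma, while 0.187% of all probe sets were called higher and 0% lower. At an unadjusted p under 0.05, 1 of the 4 was higher, beside 3.15% of all probe sets higher and 0.803% lower. That gene was *Psmb9*, with a value of 1.35 (SE 0.35, adjusted p = 0.246).

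The IFNs were also compared with each other at the same dose. Without CHX *Psmb9* was 4.35-fold higher with IFNγ than with IFNα (log2 difference 2.12, SE 0.24, adjusted p = 8.74e-05). It was the only one of the 4 genes called, where 1.44% of all probe sets were higher with IFNγ and 0.486% lower. *Psmb10* was higher with IFNγ by 0.54 (SE 0.11, adjusted p = 0.0123), and passed without IFNα replicate 2 (0.00325) or IFNγ+CHX replicate 2 (0.00964). The difference for *Psme1* was 0.60 (SE 0.18, adjusted p = 0.126).

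With CHX the difference for *Psmb9* was 1.39 (SE 0.24, adjusted p = 0.00211), again the only call among the 4, against 2.33% of all probe sets higher and 1.67% lower. It was lost without IFNγ+CHX replicate 1 (adjusted p = 0.0118) and with only the 6 arrays compared (0.126). *Psme1* was lower with IFNγ+CHX than with IFNα+CHX by -0.81 (SE 0.18, adjusted p = 0.0118), the opposite sign to the difference without CHX. This value passed without IFNγ replicate 3 (0.00911), CHX replicate 2 (0.00940) or IFNγ+CHX replicate 2 (0.00392).

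The constitutive counterparts of the 3 immunosubunits did not pass in any of the 9 comparisons. *Psmb5* had group means of 9.93 on the mock arrays, 9.99 with IFNα and 9.80 with IFNγ, and of 9.53, 9.50 and 8.99 in the same order with CHX. *Psmb6* had means of 9.89, 9.96 and 9.86 without and of 9.84, 9.70 and 9.39 with CHX. *Psmb7* had means of 10.15, 10.05 and 10.14 without and of 10.08, 9.97 and 9.75 with CHX. All 3 were thus lowest with IFNγ and CHX, where their changes against CHX were -0.54 (95% confidence interval -1.02 to -0.07), -0.45 (-0.76 to -0.14) and -0.33 (-0.97 to 0.31). The lowest adjusted p of these in limma was 0.0835, and 2 of the 3 had an unadjusted p under 0.05. At that unadjusted p 10% of all probe sets were lower and 8.03% higher in this comparison.

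The other genes of the proteasome were added to these: 11 further 20S core subunits, 17 of 18 subunits of the 19S regulator, which recognizes and unfolds ubiquitinated proteins, and 13 assembly factors and other activators. Of these 44 genes none was called with IFNγ in limma, and 1 was higher and none lower at an unadjusted p under 0.05, beside 5.47% higher and 5.34% lower among all probe sets. Their changes with IFNγ lay between -0.32 and 0.42, with a median of -0.03. With IFNγ and CHX 36 of the 44 were below CHX, 8 fell and 1 rose at an unadjusted p under 0.05, and none passed (lowest adjusted p = 0.0835). Among all probe sets 10% fell and 8.03% rose at that unadjusted p. The median change was -0.19, beside -0.04 for all probe sets tested. The single call in the 9 comparisons was that of *Psmd10*, which encodes an assembly chaperone of the 19S regulator and rose with CHX alone by 1.50 (SE 0.22, adjusted p = 3.16e-04). With CHX alone 3.92% of all probe sets were called higher and 7.02% lower.

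The class I genes act on the peptides that the proteasome makes. Of 11 genes for peptide transport, trimming and loading, 3 rose with IFNα and 4 with IFNγ, beside 0.493% and 1.71% of all probe sets. With CHX the numbers were 5 and 4, beside 0.958% and 3.22%. *B2m*, the gene of the light chain of class I molecules, rose by 1.06 with IFNα and 1.29 with IFNγ without CHX, and by 1.29 and 1.22 with it (adjusted p from 3.47e-04 to 0.00633). *Tapbp*, the gene of tapasin, which holds class I molecules at TAP, rose by 1.63 with IFNα and 1.18 with IFNγ. With CHX it rose by 2.09 with IFNα (adjusted p = 9.65e-08), and with IFNγ the change was 0.41 (adjusted p = 0.0902). *Tap2* rose with IFNγ by 1.62 (SE 0.22, adjusted p = 3.83e-04), and with IFNγ and CHX the change was 0.35 (adjusted p = 0.480). Outside the group with IFNγ alone its log2 intensities were 2.96 to 4.63, so the size of its change depends on the floor of the arrays. With IFNγ none of the 11 genes was called in the limma test of the response with against without CHX (lowest adjusted p = 0.0416). *H2-K1* and *H2-D1*, the genes of class I heavy chains, rose with CHX by 1.78 each with IFNα (adjusted p = 0.00107 and 3.38e-04) and by 1.56 and 1.58 with IFNγ (0.00120 and 3.95e-04). Without CHX their changes were 0.60 and 0.52 with IFNα and 0.74 and 0.70 with IFNγ, and none of these passed (adjusted p from 0.161 to 0.811). The differences between these responses with and without CHX did not pass either (adjusted p from 0.262 to 0.606), and probes of such similar genes may read both. CHX alone raised *Tapbp* by 1.00 (SE 0.13, adjusted p = 1.35e-04).

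**Figure D3:**
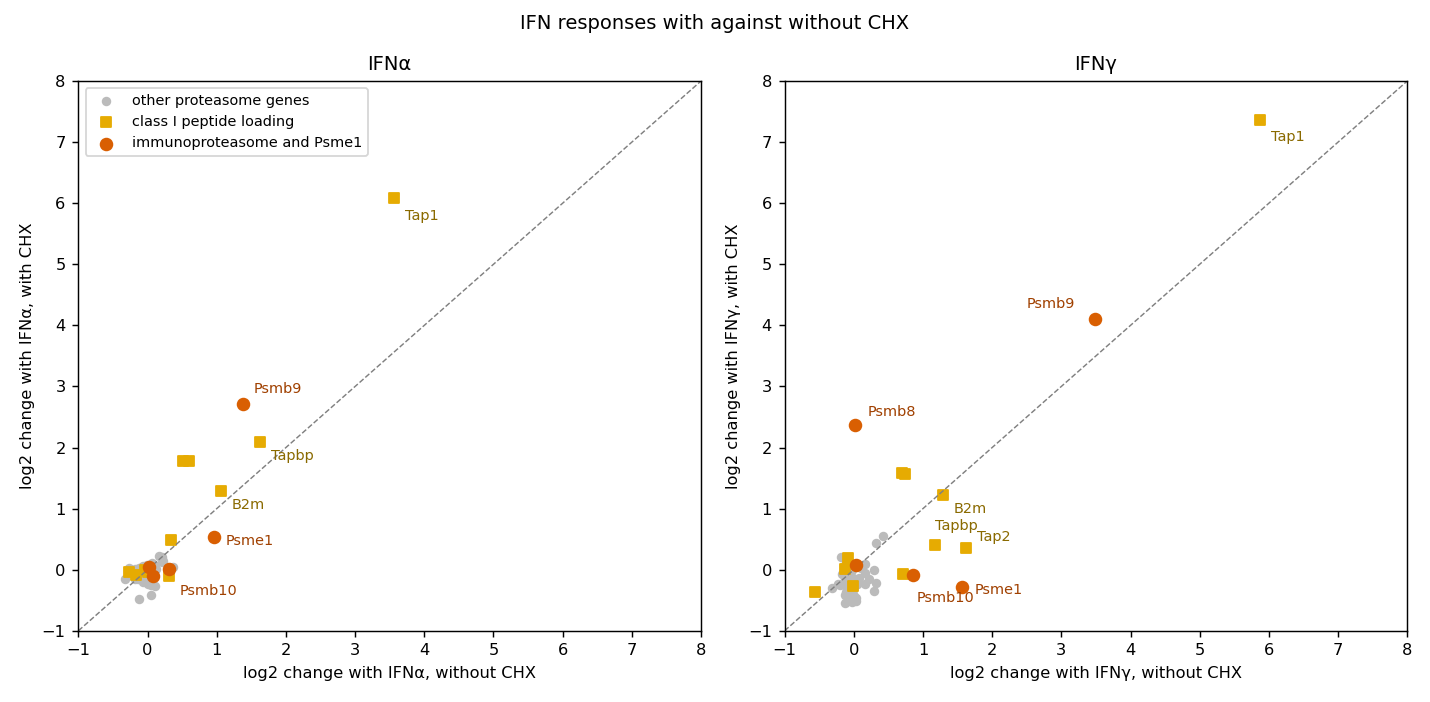
Log2 change with IFNα (left) and IFNγ (right) with CHX (y axis) against that without CHX (x axis). Each point is a probe set: orange for the immunoproteasome genes and *Psme1*, yellow squares for class I peptide loading and grey for the other proteasome genes; the dashed line marks equal change. In the IFNγ panel *Psmb9* (3.49 and 4.11) and *Tap1* (5.87 and 7.37) lie above the line. *Psme1* (1.57 and -0.29), *Psmb10* (0.85 and -0.08) and *Tap2* (1.62 and 0.35) lie below it. Among these genes only the difference of *Psme1* was called. The point labelled *Psmb8* is the probe set at its floor outside IFNγ+CHX, and is a description only.

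*Tap1*, which shares its start region with *Psmb9*, had a similar order of group means: 2.70 on the mock arrays and 2.38 with CHX, 6.27 with IFNα, 8.47 with IFNα+CHX, 8.58 with IFNγ and 9.75 with IFNγ+CHX. The arrays with IFNα+CHX, from 8.28 to 8.67, overlapped those with IFNγ, from 8.30 to 8.79, which was not so for *Psmb9*. The order of the groups with IFN was not particular to this pair. *Irf1*, described below, had it too (11.94, 13.44, 13.60 and 14.11), and *Irf9* did not. The changes of *Tap1* were 3.57 with IFNα and 5.87 with IFNγ, and 6.08 and 7.37 with CHX. Its response to IFNα was larger with CHX by 2.51 (SE 0.30, adjusted p = 0.00112). On the mock and CHX arrays *Tap1* was around or below the filter, so its fold changes depend on that floor.

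**Figure D4:**
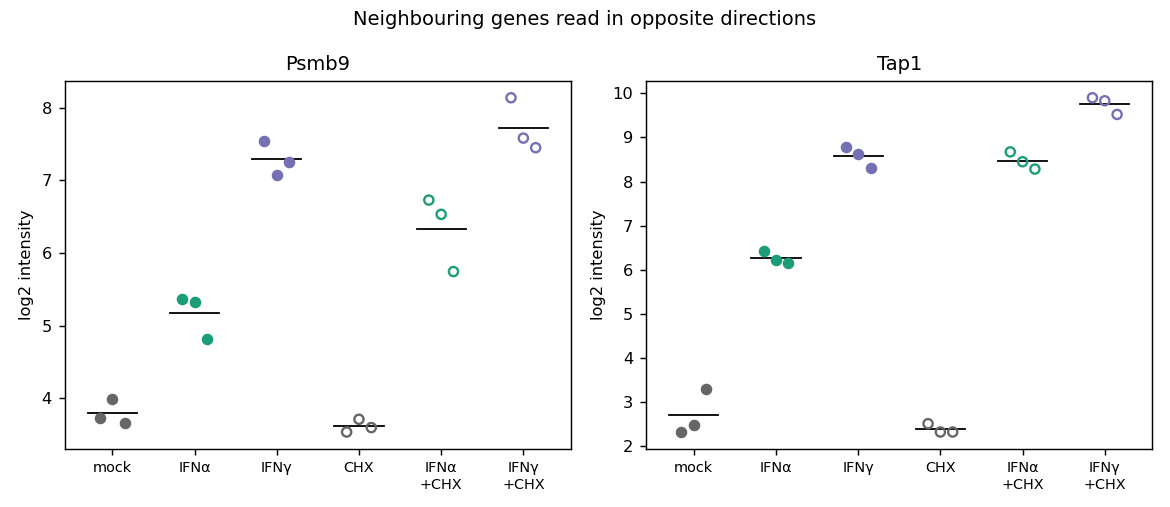
Log2 intensity of *Psmb9* (left) and *Tap1* (right) on the 18 arrays by treatment, each y axis with a range of its own. Points are arrays, open with CHX, and bars are means of 3 arrays. With both IFNs the CHX groups have the higher mean, 6.33 against 5.17 and 7.72 against 7.29 for *Psmb9*. The difference of the *Psmb9* response with against without CHX passed for neither IFN (limma, adjusted p = 0.246 with IFNα and 0.760 with IFNγ).

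Of the transcription factors and coactivators known to act on proteasome or class I genes, 9 were tested. *Irf1* encodes a factor made in response to IFN that binds promoters of immunoproteasome genes. Its mean log2 intensity was 7.99 on the mock arrays, 11.94 with IFNα and 13.60 with IFNγ, and with CHX it was 10.73, 13.44 and 14.11. *Nlrc5*, the gene of a coactivator of class I genes, had means of 2.38, 2.37 and 6.96 without CHX and of 2.75, 6.17 and 9.62 with it. On the mock, IFNα and CHX arrays *Nlrc5* was below the filter, which it passed only through the other 3 groups, so its values are a description and the size of the differences depends on the floor. *Irf9* and *Stat2*, whose products are parts of a factor that binds ISREs, rose in all 4 IFN comparisons by 3.67 to 4.90 and by 4.18 to 5.18. The mock and CHX arrays of *Stat2* lay just above the filter, so its changes too depend on the floor. Its replicates also spread widely, from 6.14 to 9.44 with IFNγ and CHX and from 6.74 to 8.78 with IFNγ alone.

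*Stat3*, a further signal transducer, rose with IFNγ by 1.74 without and 2.40 with CHX, and with IFNα by 0.88 with CHX (adjusted p = 0.00212). *Nfe2l1*, whose product raises constitutive proteasome genes when the proteasome is impaired, fell by 1.23 on the log2 scale with CHX alone (adjusted p = 0.00176), and *Rela*, the gene of an NF-κB subunit, rose by 1.77 (adjusted p = 5.39e-06). *Irf2* and *Nfe2l2* were called in none of the 9 comparisons. The part of these factors in the changes of the proteasome genes was not tested.

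The members did not share a single pattern. Over the 18 arrays, which share treatments and so are not independent points, *Psmb10* and *Psme1* had a Pearson's r of 0.849. For *Psmb9* it was 0.38 with *Psmb10* and 0.21 with *Psme1*. The pairs with *Psmb8* lay between -0.51 and 0.23, but its probe set was near the floor of the arrays. The genes most like *Psmb9* were *Apol6* (r = 0.974), *Iigp1* (0.969) and *Gbp7* (0.968), of which the last 2 encode IFN-inducible GTPases. The lowest intensities of *Apol6* (4.4) and *Gbp7* (7.2) were below the filter of 8.5, so these values depend in part on the floor of the arrays. Those most like *Psme1* were *Cd151*, which encodes a tetraspanin (0.911), *Idnk* (0.909) and *Dedd* (0.905). For *Psmb10* they were 2810001G20Rik (0.915), *Mknk1* (0.911) and *Zbtb49* (0.877), where *Mknk1* had intensities of 4.3 to 8.5 only. The *Psmb8* probe set that stands for the gene was closest to those of *Ankrd7* (0.995), *Tc2n* (0.992) and *Mir133b* (0.991), whose intensities were all between 8.0 and 15.1, and these values describe probe sets near the floor of the arrays.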

How the data were processed

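The deposited table holds 1 linear intensity per probe set and array, which the authors computed with gc-RMA per the paper's methods; the submitters' notes name Affymetrix Expression Console, with no version. Its log2 was taken with no constant added. Array medians lay between 9.6 and 10.8, and no further scaling was done. Arrays have no read depth: the 3 arrays per group and the signal over background limit the precision.

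Of 45101 probe sets, 64 controls were left out. The platform annotation gives a single symbol to 34945 of the rest, several to 932 and none to 9160. The 27773 with the highest value on any array were kept, about as many as the study kept by presence calls. All 18 arrays entered 1 model of 6 groups in limma 3.58.1 (R 4.3.3; 12 residual and 2.05 prior degrees of freedom), with two-sided tests and Benjamini-Hochberg adjustment per comparison. Some comparisons have their control arrays in common and so depend on each other. The fit was run on simulated data with noise drawn independently for each array, so that run does not cover same-numbered arrays that deviate together. Of several probe sets of a gene, that with the highest mean stands for it. Named are all members, constitutive counterparts and the regulators tested (others are not reported here), up to 3 called genes with the largest change of each other list in each comparison, and the 3 genes most like each member. Members, lists and motifs were chosen with earlier results of these data known.

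Alternatives were the replicate block, quantile normalization, median centring, log2(value + 16), a stricter filter or none, a minimum fold, a fit of the arrays compared alone, another choice of probe set, and leaving out each array.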

Additional observations from a re-analysis of the deposited data

Results flagged for a closer look

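The response to an IFN was called different with and without CHX in limma for *Psme1*, *Tap1* and *Irf1*. Tested were 4 members, 11 class I genes and 9 regulators. *Nlrc5* also passed, but is given below only as a description. For the IFNα response 0.187% of all probe sets were called higher and 0% lower. For the IFNγ response the shares were 0.202% higher and 0.0396% lower. The log2 response of *Psme1* to IFNγ differed by -1.86 (adjusted p = 0.00305). The group means were 7.32 on mock and 8.89 on IFNγ arrays, and 6.94 and 6.65 with CHX, and every IFNγ array without CHX was above every other array. *Psmb10* had a value of -0.93 in the same test, which missed the threshold (adjusted p = 0.0119).

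The response of *Tap1* to IFNα was larger with CHX by 2.51 (adjusted p = 0.00112). On its mock and CHX arrays *Tap1* was around or below the filter. The response of *Nlrc5* was larger by 3.43 with IFNα and by 2.28 with IFNγ, but *Nlrc5* passed the filter only through the groups where it was high, so these values are a description whose size depends on the floor. For *Irf1* the difference with IFNγ was -2.23 (adjusted p = 0.00698), from a mean that was 2.74 higher with CHX alone than on the mock arrays.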

How the results depend on the processing

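Of the 9 counts of called genes, those with CHX against mock (0) and in the test of the IFNα response (0) were the same under every alternative run. That with IFNγ against mock fell from 3 to 2 when only the arrays compared were fitted (*Psme1* lost) and with a minimum of 2-fold (*Psmb10* lost), and was 3 otherwise. With IFNα against mock the count rose from 0 to 1 with the replicate block (*Psmb9*, adjusted p = 0.00215), with quantile normalization (*Psme1*, 0.00663) and with a stricter filter on the mean (*Psmb9*, 0.00947). Between IFNγ and IFNα it rose from 1 to 2, through *Psmb10*, with median centring, with log2(value + 16) and with no filter (adjusted p from 0.00537 to 0.00973). For the IFNγ response with against without CHX it rose from 1 to 2, again through *Psmb10*, with median centring and with log2(value + 16). It fell to 0 when the fit held just the arrays compared, as did the counts for IFNα+CHX against CHX and IFNγ+CHX against IFNα+CHX. Fewer arrays then estimate the spread. The counts for IFNγ+CHX against CHX and against IFNα+CHX rose from 1 to 2 with the mean of the *Psmb8* probe sets (1.22 and 1.25), and with the second *Psmb8* probe set in place of the first, an alternative added after the values had been seen. That probe set passed the filter only through IFNγ+CHX, so these rises support nothing.

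Leaving out 1 array at a time gave counts of 0 to 1 for IFNα, 1 to 2 between the IFNs, and 0 to 2 both for the IFNs with CHX and for the IFNγ response. Same-numbered arrays of different groups deviated together in 38 of 45 pairs (r above 0.1, median 0.474), against 25 of 90 pairs with different numbers (median -0.31), and 14 of 18 arrays were closest to their own number. This is a hint from the data and not the design: the labels name no shared batch and not every pair was above 0.1, so the numbers were not used as a pairing. The replicate block moved no other count. Signs turned only for changes near 0. For *Psmb10* quantile normalization gave -0.0578 with IFNα+CHX, 0.0119 with IFNγ+CHX and 0.0698 between them, and median centring gave -0.0204 with CHX. Median centring gave -0.00265 with IFNα and -0.0374 with CHX for the second *Psmb8* probe set. Without 1 array the change of *Psmb8* lay between -0.01003 and 0.0871 with IFNγ, -0.00635 and 0.163 with IFNγ+CHX, -0.0827 and 0.01004 between the IFNs, and -0.0422 and 0.127 in the test of the IFNγ response. That of *Psmb10* with IFNα+CHX lay between -0.0437 and 0.0469, and the test of the IFNα response for the second *Psmb8* probe set between -0.00106 and 0.0604. No scaling moved the median of all probe sets by more than 0.1. Probe sets near the floor of the arrays, among them both of *Psmb8*, limit what can be said of small changes.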
